A study of Arabidopsis thaliana with 24 samples.

Results

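A set of 219 probe sets, of 22746 on the arrays, gave a lower signal in Arabidopsis thaliana roots without phosphate (Pi) both 6 h and 24 h after the plants were moved. The members were chosen on these same values. For each probe set and each run of the experiment, the array with Pi was subtracted from the array without Pi on the log2 scale, which is called the Pi effect here. A probe set was kept when the mean of its 3 Pi effects was at most -0.7 at 6 h and at 24 h and when each of the 6 effects was below -0.2. Of the 219 probe sets, 167 name 1 gene (166 distinct genes), 5 name several genes and 47 have no gene in the annotation used. The probe set numbers of unnamed members are given where they are described. A gene is called measured here when a probe set names it alone. Over all probe sets 4929 had no gene and 670 named several genes. A listed gene that was not measured may therefore still be on the arrays, and may be an unnamed member.

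The samples were roots of Arabidopsis thaliana grown hydroponically to 30 days with 1.5 mM Pi. Plants were rinsed in EDTA and then placed in a solution with no Pi or in one with 1.5 mM Pi, and roots were taken at 0, 1, 6 and 24 h. This gave 8 groups of 3 arrays, with 1 array a group from each of experiments 1, 2 and 3. About 20 plants were harvested at each time, so an array reports a pool of plants and all root cell types together. The labels name no accession, mutant or transgene, and the transfer itself was shared by both arms. In whole roots, fewer cells of a type and less RNA per cell cannot be told apart.

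Roots grow by dividing cells at the tip and then stretching them, which requires the cell wall to be loosened and rebuilt. Arabinogalactan proteins, expansins and xyloglucan endotransglucosylases (XTH enzymes) are secreted proteins of that wall, and cortical microtubules direct where cellulose is laid down. Root hairs are long outgrowths of single epidermal cells that take up much of the root's Pi, and shortage of Pi is known to change both hair formation and the growth of the main root.

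The arrays had near-equal medians over all probe sets, from 6.34 to 6.45 on the log2 scale. SPX1, an intracellular Pi sensor and a standard marker of Pi shortage, was no member and stood 1.63 higher without Pi at 6 h and 3.17 higher at 24 h, both called by limma (limma adjusted p = 0.00740 and 0.000302). SPX1 was the highest of the 4 genes measured on a list of 13 for Pi sensing and transport. The list had a median Pi effect of 0.36 at 6 h and 0.07 at 24 h, with lowest values of -0.26 and -0.44. Limma called 2 of the 4 higher at 6 h and 1 at 24 h, and 0 lower. With the experiment as a block 1 was also called lower at 24 h. The endodermal regulators SCR and SHR were measured at mean levels of 8.35 and 8.05. The 3 shoot photosynthesis genes measured (LHCA1, PSBO1 and LHCB4.1) had group means between 5.02 and 7.69, and their median Pi effect was 0.07, -0.09, -0.35 and -0.01 at 0, 1, 6 and 24 h. No marker of phloem or root cap could be named on these arrays.

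Without Pi the members fell far below their starting level by 6 h and had partly returned by 24 h, whereas with Pi they stayed near it. The median level of the 219 probe sets on the 3 arrays without Pi was 8.14, 7.86 and 7.14 at 0 h in experiments 1, 2 and 3. It was 7.55, 7.14 and 6.67 at 1 h, 5.99, 5.79 and 5.81 at 6 h, and 6.99, 6.22 and 6.15 at 24 h. With Pi it was 7.87, 7.50 and 6.73 at 0 h, 7.68, 7.86 and 6.81 at 1 h, 7.32, 7.43 and 7.03 at 6 h, and 7.90, 7.50 and 7.21 at 24 h. At 6 h and at 24 h every array without Pi lay below every array with Pi. Experiment 3 started lower than the other experiments in both arms.

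**Figure D1:**
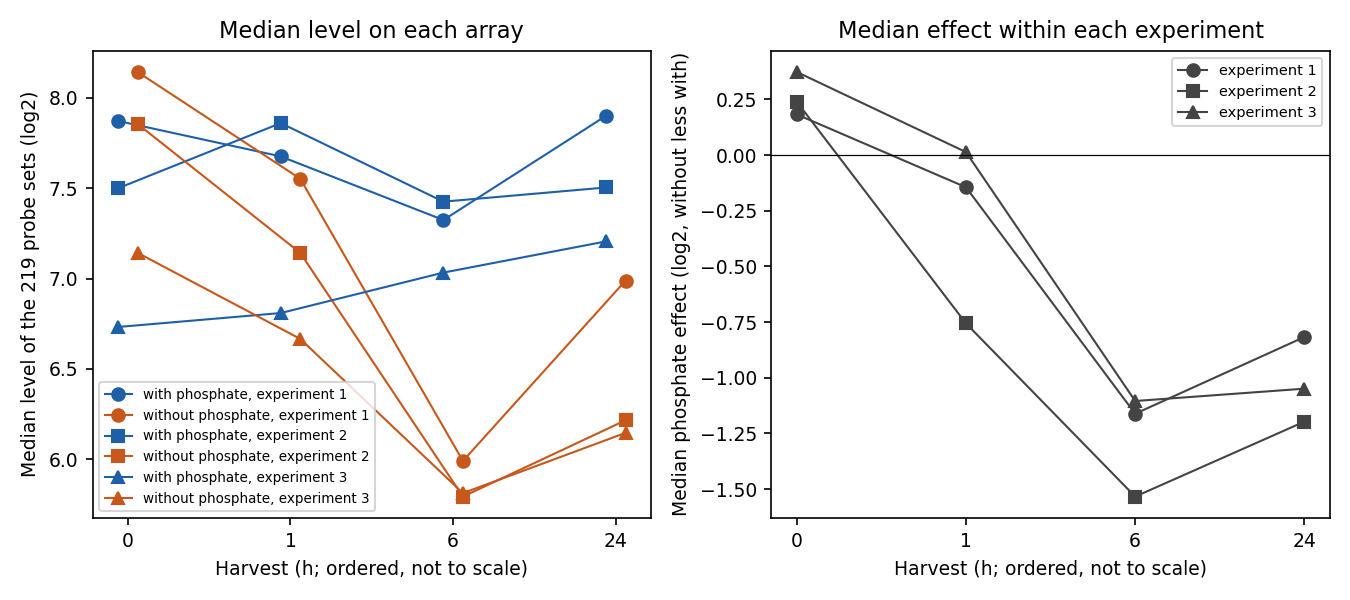
Left, the median log2 level of the 219 probe sets on each of the 24 arrays, by harvest time, with Pi in blue and without Pi in orange. Right, the median Pi effect of the same probe sets within each experiment. The arrays without Pi sit at 5.79 to 5.99 at 6 h, and the median effect is above 0 in all 3 experiments at 0 h and below -0.8 in all 3 at 6 h and 24 h.

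The median Pi effect over the members was -1.25 at 6 h and -1.02 at 24 h, against -0.02 and -0.00 over all probe sets. These are descriptions of the values that chose the members and carry no test. Within experiments 1, 2 and 3 the median was -1.16, -1.53 and -1.10 at 6 h and -0.82, -1.20 and -1.05 at 24 h. At 6 h the level was at least 2-fold lower for 161 members and at least 4-fold lower for 35. The corresponding counts at 24 h were 119 and 6, and 96 members were at least 2-fold lower at both times.

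The fall was larger at 6 h for 158 members and larger at 24 h for 61. At 24 h the Pi effect was a median 81.4% of that at 6 h, with a range from 35.5% to 208% over the members. Levels on the 3 arrays without Pi lay below all 3 with Pi for 186 members at 6 h and for 150 at 24 h. Over all probe sets 15.3% and 8.44% did so. The limma fit called 119 members lower at 6 h and 9 at 24 h, beside 5.69% and 0.0967% of all probe sets called lower (3.97% and 0.224% were called higher). With the experiment as a block these were 200 and 156 members, beside 13.2% and 2.29% of all probe sets. The rule chose the members on these arrays, so none of these counts is a test of the members and nothing is read from them against the shares of all probe sets.

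Set against their own 0 h arrays, 212 members were lower without Pi in all 3 experiments at 6 h and 212 at 24 h, beside 28.4% and 23.2% of all probe sets. Their median change from 0 h was -1.65 at 6 h and -1.16 at 24 h. With Pi the median change was -0.12 and 0.16. At 24 h 3 members were lower with Pi than at 0 h in all 3 experiments, beside 11.7% of all probe sets, and 68 were higher, beside 14.9%. The 6 h and 24 h arrays of both arms entered the rule, so these counts too only describe the members.

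**Figure D2:**
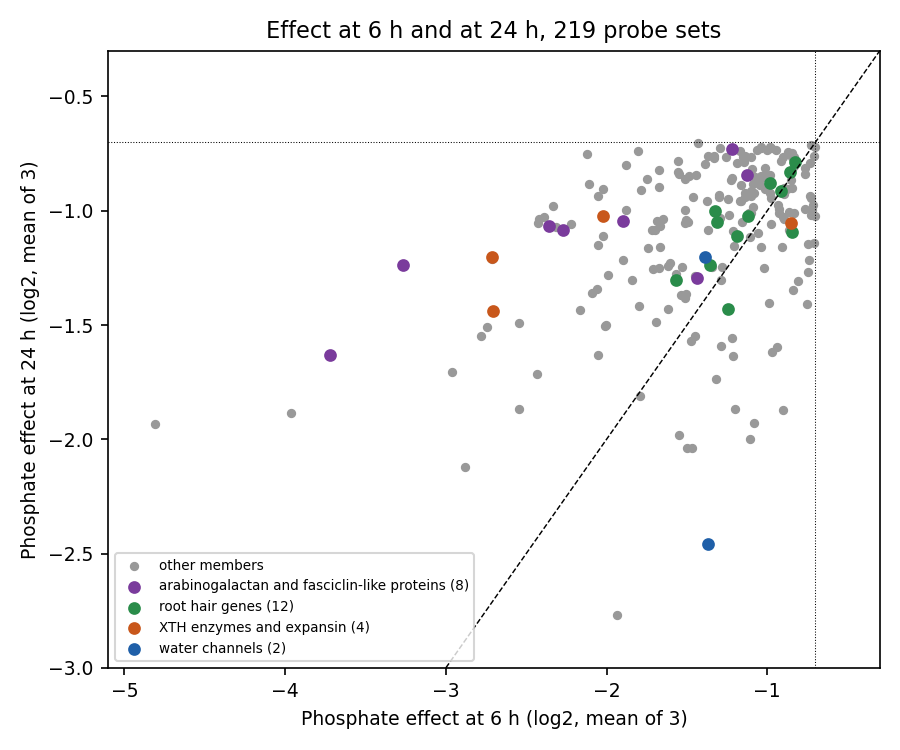
Each point is 1 of the 219 probe sets, with its mean Pi effect at 6 h across and at 24 h upwards (log2, 3 experiments). Dotted lines mark the limit of -0.7 and the dashed line marks equal effects. Most points lie above the dashed line, the arabinogalactan proteins reach -3.72 at 6 h, and the water channel PIP2;4 lies below it at -1.37 and -2.46.

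Members with a known role were put in 8 groups, 63 genes in all, after their values had been seen, so the groups serve only for description. Their Pi effects at 6 h and 24 h are bound by the rule, while those at 0 h and 1 h are not.

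The lowest group medians at 6 h were in 2 groups of secreted wall proteins, the 4 XTH enzymes and expansin (XTH16, XTH21, XTH5 and EXPA14) at -2.36 and the arabinogalactan group at -2.08. This order depends on how genes were allotted, since the members XTH14, EXPA7 and EXPA18 were put in the root hair group. Over all 4 XTH members the median at 6 h was -1.78, and over all 3 expansin members it was -1.35. Among the 8 arabinogalactan and fasciclin-like proteins outside the root hair group (AGP13, AGP22, AGP4, AGP7, AGP14, FLA13, FLA8 and FLA2) the median Pi effect was 0.26, -0.08, -2.08 and -1.07 at 0, 1, 6 and 24 h. Arabinogalactan proteins are heavily glycosylated proteins of the cell surface, and fasciclin-like ones carry an added adhesion domain.

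AGP13 (AT4G26320) read 10.22, 10.24 and 10.08 with Pi at 6 h and 6.26, 6.69 and 6.42 without. Levels at 24 h were 10.98, 10.53 and 10.19 with Pi and 9.88, 8.41 and 8.51 without. The arms did not overlap at either time, and the level was 13.2-fold lower at 6 h and 3.10-fold lower at 24 h (log2 -3.72 ± 0.21 and -1.63 ± 0.51, SD, n = 3). At 1 h AGP13 read 10.78, 10.90 and 9.88 with Pi and 10.34, 10.52 and 10.25 without, with overlapping arms.

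AGP22 (AT5G53250) followed the same course. It read 11.92, 11.65 and 11.49 with Pi and 8.04, 8.88 and 8.35 without at 6 h, and 12.04, 11.64 and 11.21 against 11.24, 10.14 and 9.81 at 24 h. The arms were apart at 6 h and overlapped at 24 h, where 37.9% of the 6 h effect was left, the second smallest share among the named members after DRT100 (35.5%). AGP4 (AT5G10430) was 5.12-fold lower at 6 h and 2.09-fold lower at 24 h.

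Not every arabinogalactan protein took part. On a list of 23 such genes 11 were measured and 5 were members (AGP3, AGP4, AGP13, AGP14 and AGP22). The rest of the list had no probe set naming the gene alone, so the count of members holds for the measured genes only. The list had a median Pi effect of -0.96 at 6 h and -0.60 at 24 h, and limma called 7 of the 11 lower at 6 h and 1 at 24 h (9 and 4 with the experiment as a block). AGP18 and AGP31 read -0.96 and -0.83 at 6 h but -0.09 and -0.28 at 24 h. At 1 h the non-members AGP1 and AGP15 were called higher without Pi (1.30 and 0.47), and no AGP member was called in either direction.

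XTH enzymes cut and rejoin xyloglucan, the polymer that ties cellulose fibrils together, and expansins loosen the wall without cutting it. XTH16 (AT3G23730) read 8.001, 8.04 and 7.83 with Pi and 5.66, 4.99 and 5.10 without at 6 h. At 24 h the values were 8.68, 8.01 and 7.83 against 7.48, 6.59 and 6.14. No overlap was seen at either time, and the arms differed by 6.53-fold and 2.71-fold. XTH21 (AT2G18800) was 6.55-fold and 2.30-fold lower. XTH5 showed a smaller fall at 6 h than at 24 h (-0.85 and -1.05).

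The XTH family split. Of 19 measured XTH genes 4 were members, and limma called 2 lower and 3 higher at 6 h (5 and 5 with the block). TCH4, the touch-induced XTH22 and no member, was 5.16 higher without Pi at 1 h and 3.89 higher at 6 h on the log2 scale, and XTH18 was 1.69 and 1.72 higher. Both were called at both times. At 24 h their Pi effects were 0.91 and -0.44, neither called.

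EXPA14 (AT5G56320) read 7.61, 7.82 and 7.41 with Pi and 5.28, 5.72 and 5.77 without at 6 h, and 8.40, 8.23 and 7.81 against 7.24, 7.31 and 6.82 at 24 h. The arms were apart at both times. Among 12 measured expansins the other members were EXPA7 and EXPA18. EXPA9, no member, was called lower at 1 h (-2.05) and at 6 h (-1.20), and its Pi effect at 24 h was -0.58.

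Enzymes that build or trim wall polymers had a smaller median effect at 6 h, and the share of each gene's own 6 h effect that was left at 24 h had a median of 106% over the genes. The 7 genes (ATCSLB05, CSLA14, IRX15-L, TBL19, MUM2, GMD1 and sks15) had a median Pi effect of -1.04 at 6 h and -0.84 at 24 h. ATCSLB05, a cellulose synthase-like protein, read 6.41, 6.59 and 5.56 with Pi and 4.88, 5.10 and 4.91 without at 6 h. It read 8.30, 7.04 and 6.28 against 6.22, 5.38 and 5.34 at 24 h, with no overlap at either time. GMD1, which makes the precursor of fucose, read -1.75 and -0.86. The beta-galactosidase MUM2 read -1.04 and -0.72, and IRX15-L, a protein needed for xylan, read -0.76 and -0.81.

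Of 9 measured tubulins 3 were members, all beta-tubulins, and limma called 5 of the 9 lower at 6 h and none at 24 h (8 and 4 with the block). TUB1 (AT1G75780) read 9.12, 9.60 and 9.11 with Pi and 5.80, 6.96 and 6.92 without at 6 h. By 24 h the values were 9.80, 9.51 and 9.74 against 8.77, 8.44 and 8.20. The level was 6.57-fold and 2.32-fold lower, with the arms apart at both times. TUB5 had Pi effects of -1.25 and -0.95 and TUB8 of -1.01 and -0.81. SP1L4, of the SPIRAL1 family of microtubule-binding proteins, read -1.33 and -0.76. The tubulins TUA6, TUB6 and TUB7 were called lower at 6 h (-0.77, -0.63 and -0.59) and read -0.22, -0.31 and 0.05 at 24 h.

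The root hair group holds 12 genes: COW1, a phosphatidylinositol transfer protein of the growing hair tip; the COBRA-like protein SHV2; LRL3, a bHLH factor that promotes hair growth; the wall proteins PRP3, AGP3, EXPA7, EXPA18 and XTH14; the peroxidases RHS19 and AT4G26010; MOP10; and G3Pp2, a glycerol-3-phosphate permease. Their median Pi effect was 0.87, -0.69, -1.15 and -1.04 at 0, 1, 6 and 24 h. Within experiments 1, 2 and 3 it was 0.33, 1.54 and 0.84 at 0 h, and -0.36, -1.78 and -0.00 at 1 h. It was -0.92, -1.33 and -1.05 at 6 h, and -0.69, -1.91 and -0.55 at 24 h. Experiment 2 had the largest effect at each time, and at 1 h experiment 3 had next to none. Only 6 of the 12 were below 0 in all 3 experiments at 1 h, and limma called 0 of them there, or 1 with the experiment as a block. The share of each gene's own 6 h effect that was left at 24 h had a median of 92.5%, beside 51.4% in the arabinogalactan group.

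**Figure D3:**
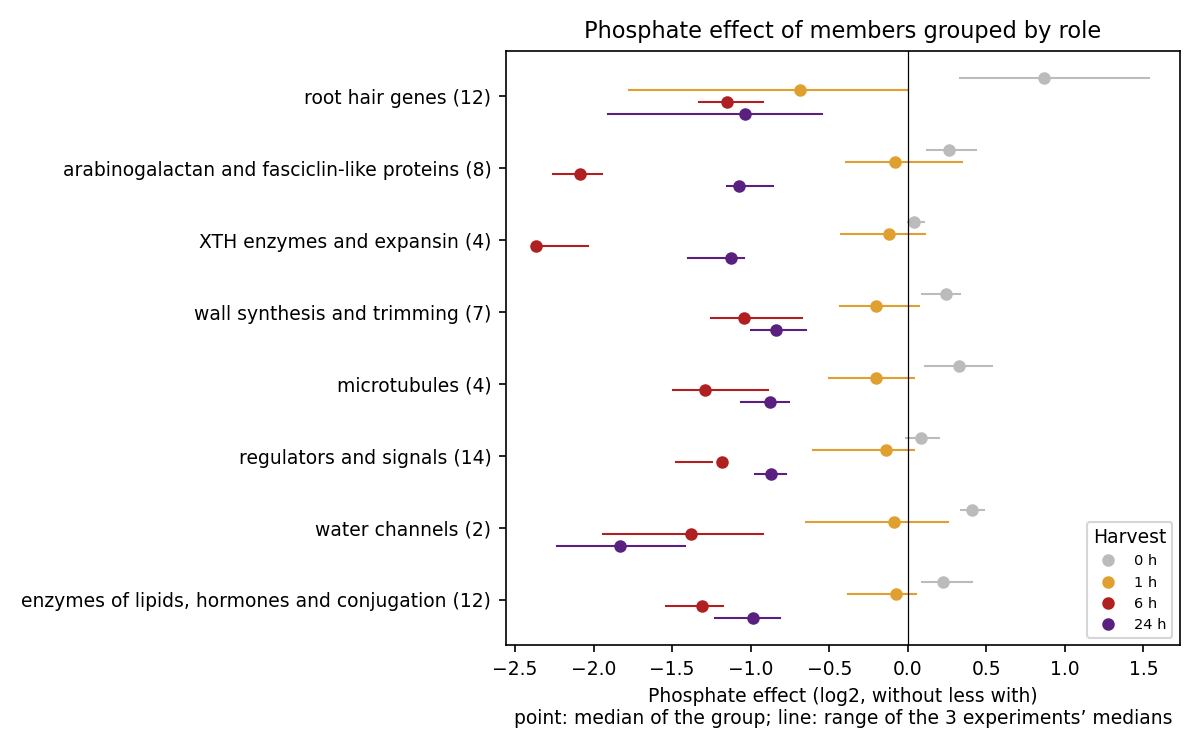
Points give the median Pi effect (log2) of the members in each of 8 role groups at 0, 1, 6 and 24 h, with the number of genes in brackets, and lines span the medians of the 3 experiments. Root hair genes stand at 0.87 at 0 h and -0.69 at 1 h, where their experiments span -1.78 to -0.00, while the arabinogalactan group stands at 0.26 and -0.08 and reaches -2.08 at 6 h.

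PRP3 (AT3G62680), a proline-rich wall protein of hairs, was among the most uneven. At 0 h it read 9.25, 7.40 and 6.38 with Pi and 9.81, 9.46 and 8.34 without, higher without Pi in all 3 experiments. At 6 h it read 9.67, 9.43 and 9.01 with Pi and 9.33, 7.85 and 7.97 without. The arms overlapped at both times, while the difference held within each experiment (log2 1.52 ± 0.84 at 0 h and -0.98 ± 0.62 at 6 h, SD, n = 3).

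COW1 (AT4G34580) read 7.01, 5.84 and 5.03 with Pi and 7.28, 7.34 and 6.01 without at 0 h. At 1 h it read 6.88, 7.88 and 5.81 against 6.52, 5.72 and 5.43. The order of the arms was thus turned within every experiment between 0 h and 1 h. At 6 h the values were 6.92, 6.99 and 6.52 against 5.99, 5.43 and 5.46, without overlap.

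With Pi the 12 root hair genes stood a median 0.90 higher at 1 h than at 0 h, and 0.88 and 0.72 above 0 h at 6 h and 24 h. The change with Pi by 1 h was -0.00, 2.06 and 0.39 in experiments 1, 2 and 3, so it lay mostly in experiment 2. It was -0.00, 1.29 and 1.40 by 6 h and -0.08, 1.25 and 0.93 by 24 h, near 0 in experiment 1. Without Pi their median change from 0 h was -0.98, -1.03 and -1.35 at 1, 6 and 24 h. The other 7 groups had medians between -0.58 and 0.38 with Pi. The difference between groups was not tested. A list of 25 root hair genes, of which 16 were measured and 9 were members, had median Pi effects of 0.83, -0.54, -0.84 and -0.91. Limma called none of the 16 lower at 6 h or 24 h and 1, the proton pump HA7, higher at 6 h (1.09). With the experiment as a block it called 5 lower at 6 h and 2 at 24 h. RHD2, the oxidase that hairs need to elongate, read -0.30 and -0.63.

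Of 45 measured class III peroxidases, secreted enzymes that cross-link or loosen walls, 5 were members. The list had a median Pi effect of 0.09 at 6 h and 0.01 at 24 h, and 4 were called lower and 2 higher at 6 h (5 and 6 with the block). RHS19 (AT5G67400) read 10.91, 10.71 and 10.42 with Pi and 9.93, 9.28 and 9.47 without at 6 h. AT2G18980 had the lowest Pi effect of the 5 at 6 h (-2.11), with 42.0% of it left at 24 h (-0.89).

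The 2 water channels among the members took different courses after 6 h. PIP2;4 (AT5G60660), a plasma membrane aquaporin, read 9.99, 10.34 and 8.67 with Pi and 9.45, 7.95 and 7.48 without at 6 h, with overlapping arms. By 24 h the levels were 11.23, 10.89 and 9.69 against 9.02, 7.61 and 7.81, with the arms apart. The fold difference grew from 2.58 to 5.49. NLM1 (AT4G19030), a nodulin-like intrinsic protein, was 2.62-fold lower at 6 h and 2.30-fold lower at 24 h. The median of the 8 measured aquaporins was -0.36 and -0.75, and limma called none of them at either time, or 2 lower at 6 h and 4 at 24 h with the block.

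Regulators and signals made up 14 of the members described by role. MYB66 (AT5G14750), known as WEREWOLF, specifies the hairless epidermal cell. It read 7.62, 7.66 and 7.61 with Pi and 6.25, 6.00 and 5.96 without at 6 h, and 8.04, 8.06 and 7.80 against 7.31, 7.31 and 6.93 at 24 h. The arms were apart at both times and the experiments were close to each other (log2 -1.56 ± 0.17 and -0.78 ± 0.08, SD, n = 3). Its Pi effect at 0 h and 1 h was -0.03 and 0.35.

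AT5G15725, the secreted peptide GLV9, read 6.58, 6.39 and 6.15 with Pi and 3.89, 4.16 and 4.12 without at 6 h. The arms were apart there and at 24 h, with Pi effects of -2.32 and -1.07. The peptide gene CLE2 read -1.003 and -0.74. The transcription factors BZIP61 and HB-3 read -2.22 and -1.06, and -1.26 and -0.77.

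PHOT1, the blue light receptor that steers bending, and NPH3, its signalling partner, were both members. PHOT1 read 5.87, 5.45 and 5.12 with Pi and 4.33, 4.55 and 4.27 without at 6 h. Its Pi effect was -0.94 at 24 h, where the arms overlapped. NPH3 read -1.44 and -0.84. FZR2, an activator of the anaphase-promoting complex that favours endoreduplication, read -0.98 and -0.73. The 3 measured mitotic cyclins (CYCB1;1, CYCB2;2 and CYCA1;1) were no members and read -0.93, -0.51 and -0.76 at 6 h but 0.22, 0.28 and 0.14 at 24 h.

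bHLH39 (AT3G56980), a transcription factor of the iron deficiency response, differed widely between experiments. At 6 h it read 4.63, 5.12 and 7.20 with Pi and 4.17, 4.77 and 4.68 without, with overlapping arms. At 24 h it read 5.91, 6.98 and 7.27 against 4.57, 5.09 and 4.48, a 4.001-fold difference with the arms apart. At 0 h its Pi effect was -0.97, the lowest of any member. The iron transporter IRT1, no member, read 0.24 at 6 h and -3.82 at 24 h, not called (adjusted p = 0.171 at 24 h), and the 13 iron uptake genes measured had a median of 0.34 and -0.23.

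Among enzymes of lipids, hormones and conjugation, CER4 (AT4G33790), which makes primary alcohols for waxes and suberin, read 6.63, 7.18 and 6.56 with Pi and 4.49, 5.20 and 4.18 without at 6 h. At 24 h it read 7.78, 7.38 and 7.22 against 6.15, 5.90 and 6.02. Every array without Pi lay below those with Pi, by 4.49-fold and 2.71-fold on average. CYP707A3 (AT5G45340), which inactivates abscisic acid, was 2.86-fold and 1.81-fold lower. AT1G77330, the ethylene-forming oxidase ACO5, was 2.59-fold and 1.94-fold lower. The glutathione transferases GSTU28 and ATGSTF13 read -1.68 and -1.25, and -1.28 and -1.25.

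**Figure D4:**
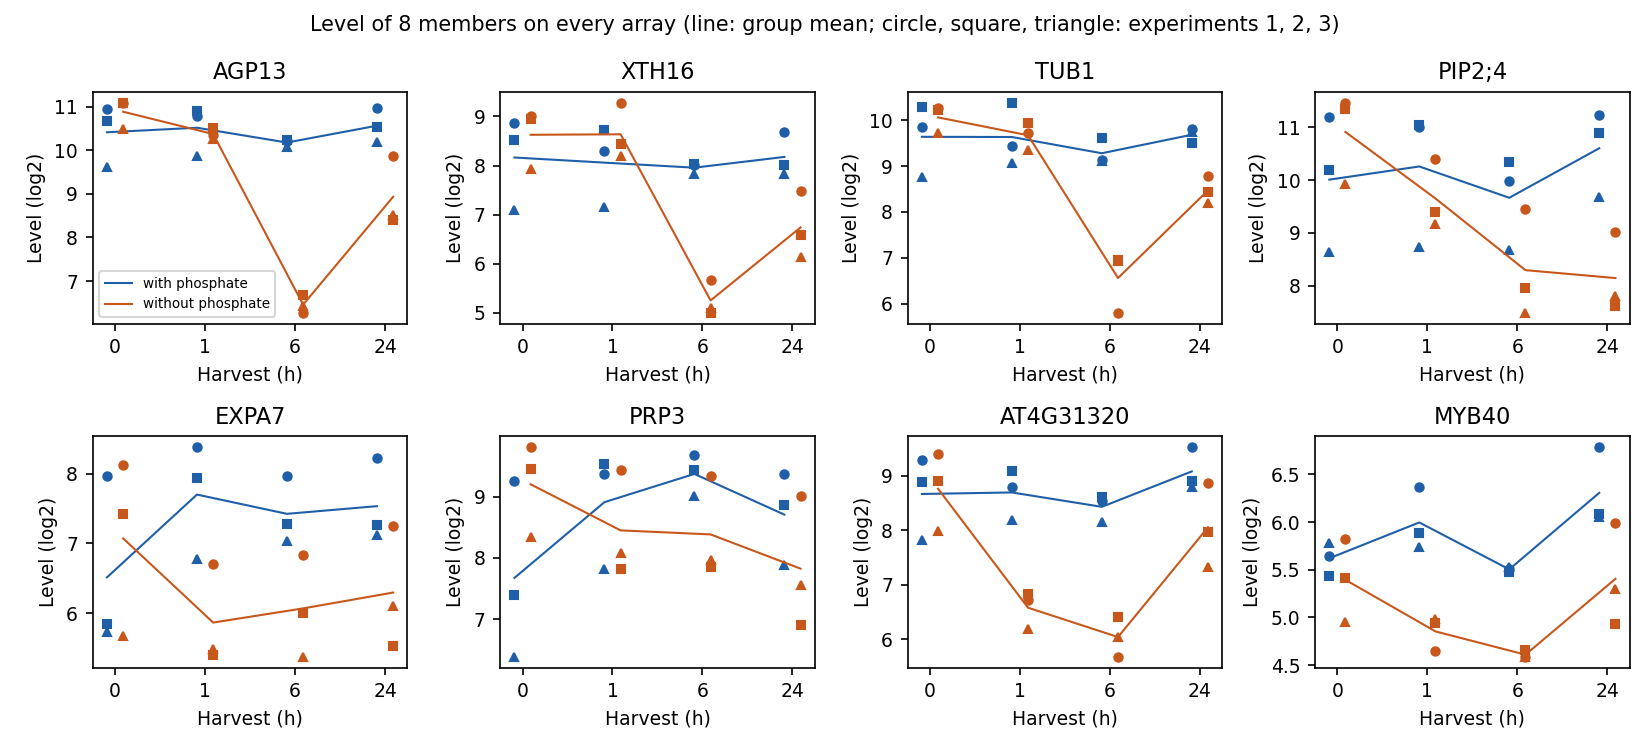
The log2 level of 8 members on all 24 arrays by harvest time, with Pi in blue and without Pi in orange. Lines join group means and symbols mark experiments 1, 2 and 3. Without Pi, AGP13, XTH16 and TUB1 drop between 1 h and 6 h and recover in part, PIP2;4 stays low at 24 h, and AT4G31320 and MYB40 are already low at 1 h. The group means of PRP3 and EXPA7 climb with Pi after 0 h, a change that was not called for either gene at 1 h.

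The members with the lowest mean of the 6 h and 24 h effects included several with no role in the annotation used. A probe set shared by AT4G12510 and AT4G12520 read 11.14, 11.06 and 9.10 with Pi and 6.03, 6.03 and 4.80 without at 6 h. At 24 h it read 12.14, 11.57 and 10.78 against 11.17, 8.20 and 9.34, with overlapping arms, and its Pi effects were -4.81 and -1.93. AT1G09750 was 15.6-fold lower at 6 h and 3.69-fold lower at 24 h. The unnamed probe set 267457_at had the lowest Pi effect of all members at 24 h (-2.77 ± 0.13, SD, n = 3), after -1.94 at 6 h.

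The plastid gene psbT, of photosystem II, was a member with the widest spread. At 24 h it read 7.998, 7.66 and 6.19 with Pi and 7.37, 3.47 and 5.05 without, and the arms overlapped at both times. Its Pi effect was -1.98 ± 1.92 (SD, n = 3) at 24 h. The size of that mean rests mostly on experiment 2, where the array without Pi read 3.47, and the other experiments had smaller differences.

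The 5 named members that kept the smallest share of their 6 h effect at 24 h were DRT100, AGP22, AT3G50640, AT2G18980 and AT4G12360, from 35.5% to 42.0%. The 5 with the largest share were AT1G52050, AT1G33840, PIP2;4, bHLH39 and AT1G23160, from 170.1% to 208%. Over the 219 members the Pi effects at 6 h and 24 h had a Pearson correlation of 0.42, given as a description since the arrays at each time are shared by all members. The correlation of the effect at 1 h with that at 6 h was -0.05.

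At 0 h, before any time without Pi had passed, the members tended to be higher on the arrays labelled as without Pi. The rule did not use these arrays. The mean Pi effect at 0 h was above 0 for 194 members and below 0 for 25, and it was above 0 in all 3 experiments for 128, or 58.4% of the members beside 14.4% of all probe sets. Their median was 0.30, against -0.00 over all probe sets, and 0.18, 0.24 and 0.37 within experiments 1, 2 and 3. Limma called no member at 0 h, where 0% of all probe sets were called. At an unadjusted p under 0.05 it gave 10 members, all higher, beside 0.8% of all probe sets higher. With the experiment as a block it gave 45 members, all higher, beside 486 of all 22746 probe sets higher.

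The 0 h difference was thus not called gene by gene. Without experiment 1, 2 or 3 as a whole the members' median was 0.38, 0.29 and 0.21. Leaving out a single array sets unlike experiments against each other. Without experiment 3's array with Pi the median was then 0.0056, and without its array without Pi it was 0.52. Without experiment 1's array it was 0.53 (with Pi) or 0.17 (without Pi). The 12 hair genes had the largest group median, and 10 of them were higher in all 3 experiments. XTH14 read 9.85, 7.55 and 7.26 with Pi and 10.27, 10.07 and 8.45 without. G3Pp2 read 1.25 higher (SE 0.55, limma adjusted p = 1.00) and RHS19 1.20 higher (SE 0.55, adjusted p = 1.00).

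At 1 h limma called 3 of the 219 members lower without Pi and none higher, beside 0.426% of all probe sets called lower and 0.708% called higher. With the experiment as a block it called 20 lower, beside 2.04%. The mean Pi effect was below 0 for 167 members, and it was below 0 in all 3 experiments for 86, beside 22% of all probe sets. The members' median was -0.27. It was -0.14, -0.76 and 0.01 within experiments 1, 2 and 3, and -0.03 without experiment 2.

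AT4G31320, the auxin-responsive gene SAUR37, read 8.80, 9.10 and 8.19 with Pi and 6.72, 6.83 and 6.19 without at 1 h. The arms were apart and all 3 experiments differed by a similar amount (log2 -2.12, SE 0.42, limma adjusted p = 0.0135). At 0 h the values were 9.30, 8.89 and 7.82 against 9.40, 8.91 and 7.98. At 6 h it stood at -2.39 and at 24 h at -1.03.

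MYB40 (AT5G14340), a MYB transcription factor, read 6.37, 5.89 and 5.74 with Pi and 4.64, 4.94 and 4.98 without at 1 h (log2 -1.14, SE 0.25, limma adjusted p = 0.0276). No overlap was seen at 1 h, 6 h or 24 h. The unnamed probe set 265683_at read 6.66, 7.06 and 6.48 with Pi and 4.94, 4.89 and 4.68 without (log2 -1.90, SE 0.26, limma adjusted p = 0.000546).

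The count of 3 was small and moved with single arrays in the fit without the block. Leaving out a single array sets unlike experiments against each other here too, and arrays were not left out of the fit with the block. It was 1 without experiment 3's array without Pi, 1 without experiment 1's array with Pi, 5 without experiment 3's array with Pi and 0 without all of experiment 2. Over all probe sets 97 were called lower with all arrays, and 101, 71, 57 and 0 in these settings, in order. The count of members was also 1 when the pair of arrays without Pi in experiment 3 whose array number carries an added suffix (1 h and 6 h) was left out. It was 1 without the 3 arrays of experiment 2 whose label number breaks the run of the rest. Over all probe sets 98 and 12 were then called lower. MYB40 was no longer called in 11 of 15 alternatives, AT4G31320 in 8 of 16 and 265683_at in 1 of 15.

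The 20 members called with the block included EXPA7 (AT1G12560), an expansin of root hairs. It read 8.38, 7.94 and 6.78 with Pi and 6.71, 5.41 and 5.49 without at 1 h. The difference was the same way in all 3 experiments (log2 -1.83, limma adjusted p = 0.290, and 0.00419 with the block). EXPA14 (-1.004), IRX15-L (-0.61), GSTU28 (-0.80) and AT1G77330 (-0.74) were among the others, with adjusted p between 0.0134 and 0.0381 with the block.

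Without Pi 164 members were lower at 1 h than at 0 h in all 3 experiments, beside 17.2% of all probe sets, and the median change was -0.55 (-0.77 to -0.40 when any 1 of the arrays compared was left out). With Pi 34 were lower and 37 higher in all 3 experiments, beside 15.8% and 16.8% of all probe sets. The median with Pi was 0.10, and its sign turned with single arrays: it was -0.14 without experiment 2's array at 1 h, -0.21 without experiment 3's at 0 h, 0.36 without experiment 3's at 1 h and -0.05 without all of experiment 2. Limma called 8 members lower without Pi, beside 0.514% of all probe sets called lower, and none with Pi, where 0.356% of all probe sets were called. At an unadjusted p under 0.05 it gave 6 lower and 3 higher with Pi, beside 2.31% and 2.34% of all probe sets. With the block the counts were 36 without Pi, beside 2.07%, and 1 with Pi, the unnamed 266218_s_at, beside 0.651% lower.

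CYP707A3 read 10.40, 9.77 and 10.08 at 0 h and 8.03, 8.54 and 8.38 at 1 h without Pi (log2 -1.77, SE 0.24, limma adjusted p = 0.00100). With Pi it read 10.02, 9.27 and 9.57 at 0 h and 9.36, 8.55 and 9.54 at 1 h. It was lower at 1 h in every experiment in both arms, and the fall was larger without Pi in each. The Pi effect at 1 h less that at 0 h was not called for CYP707A3 (log2 -1.30, SE 0.34, limma adjusted p = 0.346, and 0.143 with the block).

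EXPA14 read 8.47, 8.10 and 7.21 at 0 h and 6.42, 6.68 and 5.96 at 1 h without Pi (log2 -1.57, SE 0.31, limma adjusted p = 0.0134). IRX15-L read 7.92, 7.72 and 7.67, then 6.80, 7.20 and 7.11 (log2 -0.73, SE 0.16, limma adjusted p = 0.0355). The others called were AT4G31320 (-2.19), AT4G11230 (-1.57), a probe set shared by AT1G05650 and AT1G05660 (-2.44), and the unnamed 266218_s_at (-1.35) and 265683_at (-1.42). IRX15-L was no longer called in 11 of 16 alternatives, EXPA14 and AT4G31320 in 7 of 16 each, AT4G11230 in 6 of 16 and CYP707A3 in 3 of 16. The unnamed 265683_at lost its call in 7 of 15, 266218_s_at in 3 of 15 and the shared probe set in 2 of 15.

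Of the 14 alternatives run beside the blocks, that count of 8 went to 0 when only the arrays compared were fitted. No probe set of any kind was called in that fit. At an unadjusted p under 0.05 the same fit gave 60 members lower, beside 906 of all 22746 probe sets lower. The count of members called was 3 without experiment 1's array at 0 h, 4 without experiment 2's and 3 without experiment 3's array at 1 h (1 of the pair with a suffix). It was 2 without all of experiment 1 or all of experiment 2. Without all of experiment 3 it was 5. Over all probe sets 117 were called lower with all arrays, and 45, 36 and 68 without these single arrays, in order. Without all of experiment 1, 2 or 3 the number called lower was 47, 4 and 24.

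The test of the change itself, the Pi effect at 1 h less that at 0 h, called no member, beside 0.101% of all probe sets. It gave 48 members lower and none higher at an unadjusted p under 0.05, beside 2.23% of all probe sets lower and 1.82% higher, and 10 lower with the block, beside 0.149%. The members' median was -0.58. It was -0.74, -0.39 and -0.65 without experiment 1, 2 or 3 as a whole, and from -0.87 to -0.30 without single arrays. AT4G31320 was 1 of the 10 called with the block (log2 -2.21, SE 0.59, limma adjusted p = 0.387, and 0.0170 with the block).

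**Figure D5:**
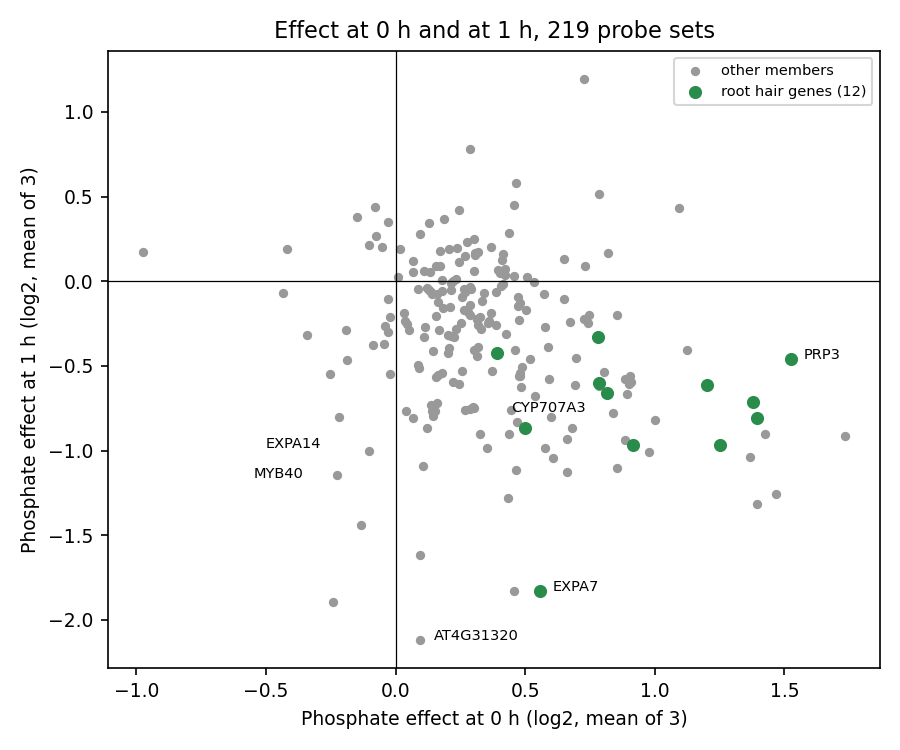
Each point is 1 of the 219 probe sets, with its mean Pi effect at 0 h across and at 1 h upwards (log2, 3 experiments), on arrays the choice of members did not use. The 12 root hair genes lie to the right of 0 and below it, and AT4G31320 lies near 0 at 0 h and at -2.12 at 1 h.

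Members were next set beside the probe sets that met the same limits at only 1 of the times. A total of 779 probe sets met the limits at 6 h and 438 at 24 h, so the members were 28.1% of the first and 50% of the second. The 560 that met them at 6 h and were no members had median Pi effects of 0.02, -0.08, -0.85 and -0.24 at 0, 1, 6 and 24 h. The 219 that met them at 24 h and were no members had 0.27, -0.21, -0.38 and -0.88. At 0 h the members' 0.30 lay close to the 24 h set and away from the 6 h set. This comparison of medians was not tested.

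Some members lie side by side in the genome. In the RefSeq gene order 165 member genes could be placed, and 5 pairs had at most 2 coding genes between them. AT1G50050 and AT1G50060, AT1G52050 and AT1G52060, and AT2G17070 and AT2G17080 were immediate neighbours. The pair AT1G52050 and AT1G52060 had Pi effects of -1.60 and -1.59 at 24 h. ATGSTF13 lay near AT3G62780, and XTH14 near AT4G25790. Similar sequences of neighbouring copies can share signal on a probe set, and this was not tested.

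At the edge of the rule, values just inside and just outside were almost equal. The closest inside were AT4G11020 (-0.70 at 6 h and -1.02 at 24 h), AT1G23030 (-1.43 and -0.70), AT5G26010 (-0.71 and -0.72), the unnamed 263614_at (-0.71 and -1.14) and TBL19 (-0.71 and -0.76). The closest outside were the unnamed 257873_at (-0.73 and -0.70), AT3G14510 (-0.83 and -0.70), the unnamed 255232_at (-0.74 and -0.70), AT1G22550 (-0.87 and -0.69) and AT5G44770 (-1.29 and -0.69). AT1G22330 entered with 2 probe sets, which read -1.99 and -1.70 at 6 h and -1.28 and -1.08 at 24 h.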

How the data were processed

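Total RNA of roots was hybridised to 24 Affymetrix arrays. The authors deposited a log2 value per probe set and array and, in the authors' deposited table, log2 differences, test scores and p-values. Summarisation and normalization are not given in the sources used here, and limma is named per the submitters' processing notes, without a version. The deposited log2 differences equalled differences of group means to within 5e-07. No depth applies, and the number of arrays limits the precision.

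Here 64 control probe sets were left out of 22810. Genes were named from the deposited locus column (95 members) or GEO's platform annotation (72), with symbols from RefSeq (TAIR10.1). limma 3.58.1 in R 4.3.3 fitted 8 group means to all arrays, with Benjamini-Hochberg adjustment over 22746 probe sets and a threshold of 0.05. The same fit gave all contrasts. Members were tested at 0 h and 1 h; their calls at 6 h and 24 h, which the rule used, are given as descriptions, beside calls for genes outside the set. The members and lists were chosen with earlier results of these data known. Named genes were the 25 lowest by the mean of the 6 h and 24 h effects, list members, up to 12 with the smallest p in each contrast at 0 h or 1 h, those nearest the limits, and those with extreme shares left at 24 h; the 8 role groups were added after values were seen. The alternatives were a block for the experiment (fixed or random), median centring, a filter on dim probe sets, and leaving out arrays. Each was applied alone, so arrays were left out only in the fit without a block.

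The labels give an experiment number shared across groups. Deviations from group means correlated at a mean r of 0.55 within an experiment and -0.26 between experiments. The deviations of a group sum to 0 over its 3 arrays, so the negative value follows from the positive one and adds no evidence. The lowest of the 18 pairs compared had 0.22, and 22 of 24 arrays were closest to one of their own experiment, so the numbers pair the arrays. Nothing says that the pools were of separate batches of seed, so p-values measure the spread between these 3 runs. Tested on simulated data for the 1 h contrast with 22746 probe sets, the fit called 81 of 100 changes of 1 log2 unit, 94 of 100 of 2 units, and 6 of 22546 unchanged. The simulated noise was independent between arrays, with no part shared within an experiment. These rates therefore hold for unpaired noise and were not obtained for paired arrays like these.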

Additional observations from a re-analysis of the deposited data

Results flagged for a closer look

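The median Pi effect of the members was above 0 in all 3 experiments at 0 h (0.18, 0.24 and 0.37) and below 0 in all 3 at 6 h (median -1.25) and at 24 h (median -1.02). The members were chosen for the effects at 6 h and 24 h, so the difference from 0 h was not tested.

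A count of 49 members were above 0 at 0 h and below 0 at 1 h in all 3 experiments, or 22.4% of the members beside 1.72% of all probe sets. No array is used at both times, and the difference was not tested over the members as a group. For single members the change between 0 h and 1 h passed the limma threshold for 0 without the block, beside 0.101% of all probe sets. With the block it passed for 10, all lower, beside 0.149% of all probe sets lower. Groups of 3 arrays are too small for a check of single outlying arrays.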

How the results depend on the processing

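The count called at 0 h was 0 in all 16 alternatives. Members called at 1 h (3) became 20 with the replicate block, 18 with the replicate block as a random effect, 1 without the 2 suffixed arrays of experiment 3, 1 without the out-of-run arrays and 1 with only the arrays compared; leaving out replicates gave 0 to 5. Members called from 0 h to 1 h without Pi (8) became 36 and 31 with the fixed and random replicate block, 3 without the suffixed arrays and 0 with only the arrays compared; leaving out replicates gave 2 to 12. With Pi the count (0) became 1 with either block and stayed 0 when replicates were left out. For the difference 1 h less 0 h the count (0) became 10 and 4 with the blocks, and 0 to 1 without replicates. Over all probe sets the counts at 1 h were 258 and, with the blocks, 902 and 882. They were 228 without the suffixed arrays, 106 without the out-of-run arrays, 70 with only the arrays compared and 12 to 234 without replicates. From 0 h to 1 h without Pi they were 229, and 840 and 773 with the blocks. Without the suffixed arrays 104 were called, 0 with only the arrays compared, and 7 to 218 without replicates. With Pi they were 81, 196 and 207, and 1 to 71. For the difference they were 23, 93 and 67, and 0 to 24. The set held 360 probe sets at a limit of -0.5 and 96 at -1, and 194 to 308 on the other 2 experiments. The median Pi effect was 0.18 in experiment 1 at 0 h, -0.76 in experiment 2 and 0.013 in experiment 3 at 1 h, where it turned, -1.53 in experiment 2 at 6 h and -0.82 in experiment 1 at 24 h. Leaving out replicates, an alternative added after seeing the data for the medians, gave 0.0056 to 0.53 at 0 h and -0.61 to -0.03 at 1 h; leaving out whole experiments alone gave 0.21 to 0.38 and -0.41 to -0.03. The 11 single results kept their direction in all 171 alternatives and stayed past the threshold in 105. The causes of these changes were not tested.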
